A study of Mus musculus with 8 samples.

Results

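Pyruvate made by glycolysis in the heart is either carried into mitochondria and oxidised or turned into lactate, and 10 mouse genes at that branch are described here. They were chosen by name as the subunits of the E1 component of the pyruvate dehydrogenase (PDH) complex (*Pdha1* and *Pdhb*), the 4 PDH kinases (*Pdk1* to *Pdk4*), the mitochondrial pyruvate carrier (*Mpc1* and *Mpc2*), and the main lactate dehydrogenases (*Ldha* and *Ldhb*). All 10 were among the 16994 genes of the table, and all 10 passed a filter of a mean of at least 1 CPM, which 12999 genes passed. CPM is a gene's count scaled to a fixed library size, here after adjustment of the libraries with edgeR's TMM factors. The hearts came from male WT mice and from male mice with a whole-body knockout of *Tigar* (TKO), a gene whose protein slows glycolysis, and the strain of the TKO mice is not given in the sources used here. For the infarct, border, and remote zones, the left anterior descending coronary artery was tied off for good at 16 weeks of age to cause myocardial infarction (MI), and tissue was taken 4 weeks later. Left ventricular tissue without MI zones was the normal reference, and the age of those mice and any sham surgery are not given in the sources used here. Each genotype and region had 1 library, 8 in all, so a ratio of 2 libraries cannot be set against a spread between replicates. Infarct zone RNA was pooled from 3 mice per genotype, the number of mice behind the other libraries is not given, and the zones were cut from the same hearts, so regions are not independent mice.

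The PDH complex commits pyruvate to oxidation by turning it into acetyl-CoA, and the PDH kinases switch it off by phosphorylating the E1α subunit, which *Pdha1* encodes. PDK4 is the kinase known to rise with fasting and fatty acid use in heart and skeletal muscle, whereas PDK2 is widely made and PDK1 and PDK3 are known as targets of hypoxia signaling. The carrier proteins MPC1 and MPC2 work as a pair in the inner mitochondrial membrane. LDHB is the form of lactate dehydrogenase that prevails in healthy heart muscle, and LDHA is the form of skeletal muscle and of tissues that make lactate.

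Total counts lay between 27429240 and 33799249 per library, and a gene with 3 counts or fewer, 0.0709 to 0.116 CPM, was taken as not detected. *Tigar* had 1066 to 2215 counts in the 4 WT libraries and 51 to 87 in the 4 TKO libraries. The summed CPM of 10 cardiomyocyte markers, all detected in every library, was 9888 in the WT infarct zone and 20500 in the TKO infarct zone, against 32742 to 45047 in the other libraries. The 8 fibroblast markers summed to 8302 CPM in the WT and 6865 CPM in the TKO infarct zone, against 933 to 2998 elsewhere. The 8 leukocyte markers summed to 1283 CPM in the WT and 959 CPM in the TKO infarct zone, against 240 to 471 elsewhere. Of these, *Tyrobp* was not detected in some libraries. The TMM factors of the infarct zone libraries were 1.54 in WT and 1.26 in TKO, against 0.866 to 0.956 for the others, and scaling by total counts alone would raise the infarct over left ventricle ratio of the median gene by 0.82 in WT and 0.53 in TKO (log2) and shift its infarct zone TKO over WT ratio by -0.29. In such tissue RNA, fewer cells of a type and less RNA per cell cannot be told apart.

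The upstream sequences of *Pdk4*, *Ldha*, and *Ldhb* are shown because the shares of these genes within their families differed between libraries. They are from RefSeq (build GRCm38.p6), read 5′ to 3′ on the gene's strand, and end at the first listed RefSeq start, or, for *Pdk4*, 31 bases before it, where the GENCODE annotation has an exon. Capitals mark matches on either strand to AGGTCA (a nuclear receptor half-site), ACGTG or GCGTG (cores of the hypoxia response element), GGGCGG (a GC box), or CACGTG (an E-box, which holds ACGTG on both strands).
*Pdk4*, chr6:5496310-5496528, minus strand: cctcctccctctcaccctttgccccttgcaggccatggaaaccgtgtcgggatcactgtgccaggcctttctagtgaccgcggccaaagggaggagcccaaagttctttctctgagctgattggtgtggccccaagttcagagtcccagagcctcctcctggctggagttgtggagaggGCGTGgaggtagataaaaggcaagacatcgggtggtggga
*Ldha*, chr7:46845554-46845803, plus strand: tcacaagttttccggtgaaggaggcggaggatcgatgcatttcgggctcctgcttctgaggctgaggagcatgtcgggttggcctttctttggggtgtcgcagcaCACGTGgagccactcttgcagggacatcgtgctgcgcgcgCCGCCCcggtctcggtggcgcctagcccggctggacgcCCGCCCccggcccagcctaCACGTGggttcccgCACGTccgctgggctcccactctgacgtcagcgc
*Ldhb*, chr6:142507958-142508207, minus strand: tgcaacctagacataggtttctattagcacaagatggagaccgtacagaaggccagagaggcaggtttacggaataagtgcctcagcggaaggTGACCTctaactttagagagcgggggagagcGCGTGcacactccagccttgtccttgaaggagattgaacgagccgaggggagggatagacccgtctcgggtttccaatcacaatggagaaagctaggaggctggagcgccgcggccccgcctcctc

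In the 250 bases before the start, *Ldha* held 2 copies of CACGTG, a further ACGTG on the opposite strand, and 2 copies of GGGCGG. *Ldhb* held 1 AGGTCA and 1 GCGTG, and *Pdk4* 1 GCGTG. Of 32851 RefSeq upstream regions of the same length, 6.02% held CACGTG, 16.6% ACGTG, 28.2% GCGTG, 32.7% GGGCGG, and 14.0% AGGTCA. Among the first listed starts of the 10 genes, 2 held CACGTG, 4 ACGTG, 8 GCGTG, 6 GGGCGG, and 1 AGGTCA. None held TNAAGGTCA, the extended half-site of estrogen-related receptors, which 1.14% of all regions held. These matches are letters in a window and were not tested for binding.

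*Pdk4* gave the widest range among the kinases. It lies on chromosome 6 of GRCm38 from 5483351 to 5496309 (ENSMUSG00000019577). The WT left ventricle gave 35967 *Pdk4* counts, and the infarct, border, and remote zones of WT gave 2568, 4701, and 4921. The TKO libraries gave 10880, 2608, 4172, and 4844 in the same order. As levels these were 1312, 60.7, 153, and 162 CPM in WT and 420, 73.0, 141, and 161 CPM in TKO. The WT left ventricle stood above every other library, the TKO left ventricle came next, and in each genotype the infarct zone lay below the border and remote zones.

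The TKO over WT ratio of *Pdk4* was thus 0.320 in the left ventricle (exact 95% interval, 0.313 to 0.327). All intervals given for ratios and shares are Clopper-Pearson intervals for counting error only, since each genotype and region has 1 library. Reads were not tagged with molecular identifiers and can be copies of each other, so the intervals can be too narrow even for that. Of the 12999 genes, 174 had a lower ratio in the left ventricle, but none of the 263 genes with at least 10880 counts in the WT left ventricle did. After MI the *Pdk4* ratio of the infarct zone was 1.20 (1.14 to 1.27), that of the border zone 0.922 (0.884 to 0.961), and that of the remote zone 0.995 (0.956 to 1.04). Whether the genotype difference of the left ventricle stood apart from that of the 3 MI zones was tested with edgeR's quasi-likelihood test on all genes. Benjamini-Hochberg adjustment was used, and regions stood in for replicates. The test was added after the data were seen. The departure of *Pdk4* was -1.69 ± 0.24 (log2, SE), and it did not pass in edgeR (adjusted p = 0.059). It passed with total-count scaling in edgeR (adjusted p = 0.0052) and in DESeq2 (adjusted p = 2.01e-08). No other of the 10 genes passed in any of these fits. Of all genes, 0.646% passed in edgeR with TMM, 2.12% with total counts, and 2.15% in DESeq2. In edgeR 1 of the 10 genes, *Pdk4*, had an unadjusted p under 0.05, as did 16.8% of all genes. The departure rests on 1 WT and 1 TKO library of left ventricle.

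The same pair of libraries also differed in adipocyte markers. The summed level of 4 of them (*Adipoq*, *Plin1*, *Cidec*, and *Retn*) was 30.7 CPM in the WT left ventricle, with all 4 detected, and 0.541 CPM in the TKO left ventricle, with *Retn* and *Plin1* not detected. In the 6 zone libraries the sum lay between 2.46 and 6.74 CPM, with 3 of 4 detected. *Pdk4* is also made in fat, and the part of such cells in its left ventricular difference was not tested.

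Divided by its own genotype's left ventricle, the WT level of *Pdk4* was 0.0463 for the infarct (0.0444 to 0.0481), 0.116 for the border (0.113 to 0.120), and 0.123 for the remote zone (0.120 to 0.127). The TKO values were 0.174 (0.166 to 0.181), 0.335 (0.323 to 0.347), and 0.383 (0.370 to 0.396). The border and remote zones were close to each other in each genotype. With genotype as a term and the 8 libraries in 1 fit, the log2 fold change of *Pdk4* was -3.59 ± 0.48 for the infarct zone (SE; edgeR adjusted p = 0.00177), -2.47 ± 0.46 for the border zone (edgeR adjusted p = 0.0765), and -2.33 ± 0.46 for the remote zone (edgeR adjusted p = 0.248). The border zone value passed with DESeq2 and with total counts, and the remote zone value with DESeq2. In these fits the 2 genotypes, with 1 library each per region, stand in for replicates.

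*Pdk2* (ENSMUSG00000038967, chromosome 11, 95026258 to 95041354) had 438, 86.7, 261, and 289 CPM in the left ventricle, infarct, border, and remote zones of WT and 396, 178, 337, and 368 CPM in TKO. The left ventricle was highest and the infarct zone lowest in both genotypes. TKO was lower than WT in the left ventricle, with a ratio of 0.903 (0.880 to 0.927), and higher in the 3 zones, where the ratio was 2.05 (1.97 to 2.14) in the infarct, 1.29 (1.25 to 1.33) in the border, and 1.27 (1.24 to 1.31) in the remote zone.

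*Pdk1* (ENSMUSG00000006494, chromosome 2, 71873224 to 71903858) had 201, 67.7, 181, and 167 CPM in the WT left ventricle, infarct, border, and remote zones and 186, 109, 195, and 199 CPM in TKO. Outside the infarct zone its levels stayed within a narrow range in both genotypes. Its TKO over WT ratio was 0.925 (0.890 to 0.962) in the left ventricle and 1.62 (1.54 to 1.70) in the infarct zone.

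*Pdk3* (ENSMUSG00000035232, chromosome X, 93764607 to 93832201) was the scarcest of the kinases, with 59, 284, 75, and 96 counts in the same order in WT and 34, 164, 67, and 58 in TKO. With TMM scaling it was the only one of the 10 genes with its highest level in the infarct zone of both genotypes, 6.71 CPM in WT and 4.59 CPM in TKO against 1.31 to 3.15 CPM elsewhere. The infarct over left ventricle ratio was 3.12 for WT (2.35 to 4.20) and 3.49 for TKO (2.40 to 5.22). TKO was lower than WT in the infarct zone (0.683, 0.560 to 0.831), the left ventricle (0.610, 0.388 to 0.945), and the remote zone (0.611, 0.433 to 0.855), but in the border zone the interval held 1 (0.928, 0.657 to 1.31). The summed leukocyte and fibroblast markers were likewise highest in the WT and next in the TKO infarct zone. The part of such cells in the *Pdk3* level was not tested.

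Within a library the shares of the 4 kinases do not depend on the library scaling. *Pdk4* made up 67.2% of the *Pdk* counts in the WT left ventricle (66.8 to 67.6) and 41.9% in the TKO left ventricle (41.3 to 42.5). After MI its share was 27.4% in the infarct, 25.6% in the border, and 26.0% in the remote zone of WT, and 20.0%, 20.8%, and 22.1% in TKO. *Pdk2* held the largest share of counts in the 6 zone libraries, from 39.1% to 50.4%, and *Pdk3* reached 3.03% (2.69 to 3.39) in the WT and 1.26% (1.07 to 1.46) in the TKO infarct zone, against 0.110% to 0.508% elsewhere. Per kilobase of exon, the summed level of the kinases over the mean of *Pdha1* and *Pdhb* was 1.31 in the WT left ventricle and 0.668 in the TKO left ventricle, and it lay between 0.507 and 0.573 in the 6 zone libraries. Without *Pdk4* the same quotient was 0.502 in the WT left ventricle and 0.395 to 0.449 in the other 7 libraries.

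**Figure D1:**
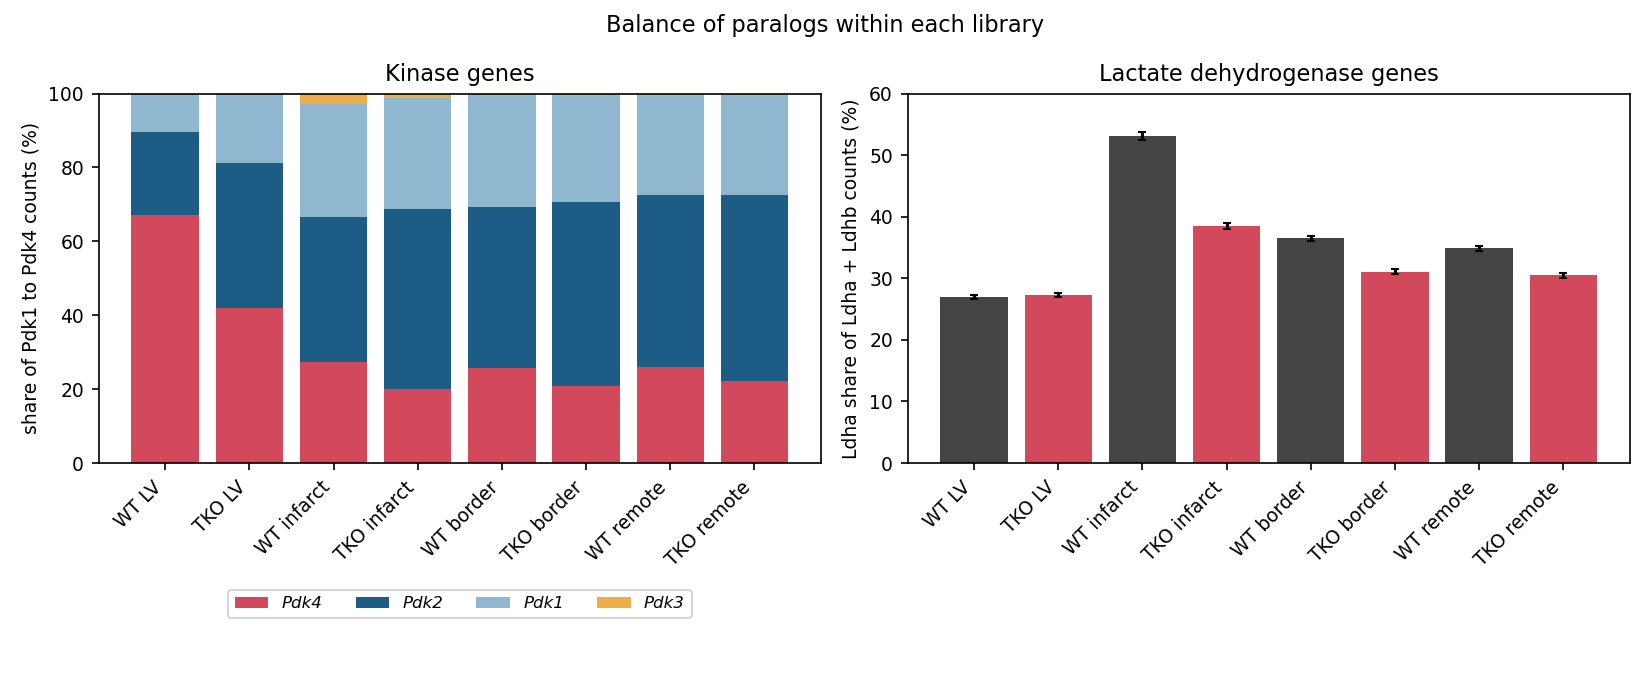
Shares of counts within each of the 8 libraries. Left, the percentage of *Pdk1* to *Pdk4* counts from each kinase gene as stacked bars; right, the percentage of *Ldha* in *Ldha* plus *Ldhb* counts, with 95% counting-error intervals as error bars and WT in grey and TKO in red. *Pdk4* takes 67.2% of the kinase counts in the WT left ventricle and 20.0% to 41.9% elsewhere, and the *Ldha* share is highest in the WT infarct zone, at 53.1%.

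The balance of *Ldhb* and *Ldha* differed between the infarct zone and the left ventricle. *Ldhb* (ENSMUSG00000030246, chromosome 6, 142490249 to 142507957) had 42276, 12005, 29589, and 34363 counts in the left ventricle, infarct, border, and remote zones of WT and 45138, 22790, 37648, and 39526 counts in TKO. *Ldha* (ENSMUSG00000063229, chromosome 7, 46841475 to 46855627) had 15597, 13599, 17009, and 18425 counts in WT and 16935, 14248, 16997, and 17354 in TKO. *Ldhb* led *Ldha* in every library except the WT infarct zone, where *Ldha* had more counts.

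The *Ldha* share of the 2 genes was 26.95% in the WT (26.6 to 27.3) and 27.3% in the TKO left ventricle (26.9 to 27.6). The infarct zone had 53.1% in WT (52.5 to 53.7) but 38.5% in TKO (38.0 to 39.0). The border zone had 36.5% in WT and 31.1% in TKO, and the remote zone 34.9% and 30.5%, so in each zone after MI the share was higher in WT. In each zone the summed fibroblast and leukocyte markers were also higher in WT, and the cardiomyocyte markers lower. The part of the mix of cells in the share was not tested. Per kilobase of exon the shares were 43.8% in the WT and 30.1% in the TKO infarct zone and 20.2% to 28.3% in the other libraries, so *Ldhb* remained ahead in all 8. The log2 ratio of *Ldha* to *Ldhb* was lower in TKO than in WT in 3 of 4 regions, with a mean difference of -0.37 ± 0.37 (SD, n = 4 regions), which an exact two-sided sign permutation test over the regions did not call (p = 0.25, the smallest this design allows being 0.125).

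In the infarct zone TKO exceeded WT 2.25-fold for *Ldhb* (2.20 to 2.30), the highest of the 10 ratios there, and 1.24-fold for *Ldha* (1.21 to 1.27). In the other regions *Ldhb* ratios were 1.13 to 1.32 and *Ldha* ratios 0.952 to 1.15. The infarct over left ventricle ratio of *Ldhb* was 0.184 for WT (0.180 to 0.188) and 0.366 for TKO (0.360 to 0.372). That of *Ldha* was 0.565 (0.552 to 0.578) and 0.610 (0.596 to 0.623). The table also lists the pseudogenes *Ldhb-ps*, with 116 to 254 counts per library, and *Ldha-ps*, with 16 to 43. How many reads either gene shared with such copies was not measured, and their split between gene and copy is uncertain.

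*Pdha1* (ENSMUSG00000031299, chromosome X, 160122209 to 160138413) had 1259 CPM in the left ventricle of both genotypes, and in the infarct, border, and remote zones 355, 1023, and 1075 CPM in WT and 623, 1174, and 1190 CPM in TKO. *Pdhb* (ENSMUSG00000021748, chromosome 14, 8165996 to 8173025), which encodes the β subunit, had 747, 193, 614, and 673 CPM in WT and 842, 384, 746, and 736 CPM in TKO. For both subunits the infarct zone was lowest, and the WT infarct zone lowest of all 8 libraries. Their TKO over WT ratios in the infarct zone were 1.75 (1.72 to 1.79) and 1.996 (1.94 to 2.05). The *Pdha1* to *Pdhb* count ratio stayed between 1.495 and 1.85 over the libraries.

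*Mpc1* (ENSMUSG00000023861, chromosome 17, 8282904 to 8297661) had 449, 154, 426, and 503 CPM in the WT left ventricle, infarct, border, and remote zones and 510, 272, 503, and 506 CPM in TKO. *Mpc2* (ENSMUSG00000026568, chromosome 1, 165460637 to 165481214) had 313, 81.9, 233, and 307 CPM in WT and 381, 157, 304, and 309 CPM in TKO. The genotypes were nearly equal in the remote zone, where both genes had a ratio of 1.01, and TKO was higher in the other regions. The ratio was 1.77 (1.71 to 1.82) for *Mpc1* and 1.92 (1.84 to 1.999) for *Mpc2* in the infarct zone, and *Mpc1* made up 57.3% to 65.3% of the counts of the carrier pair in all libraries.

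**Figure D2:**
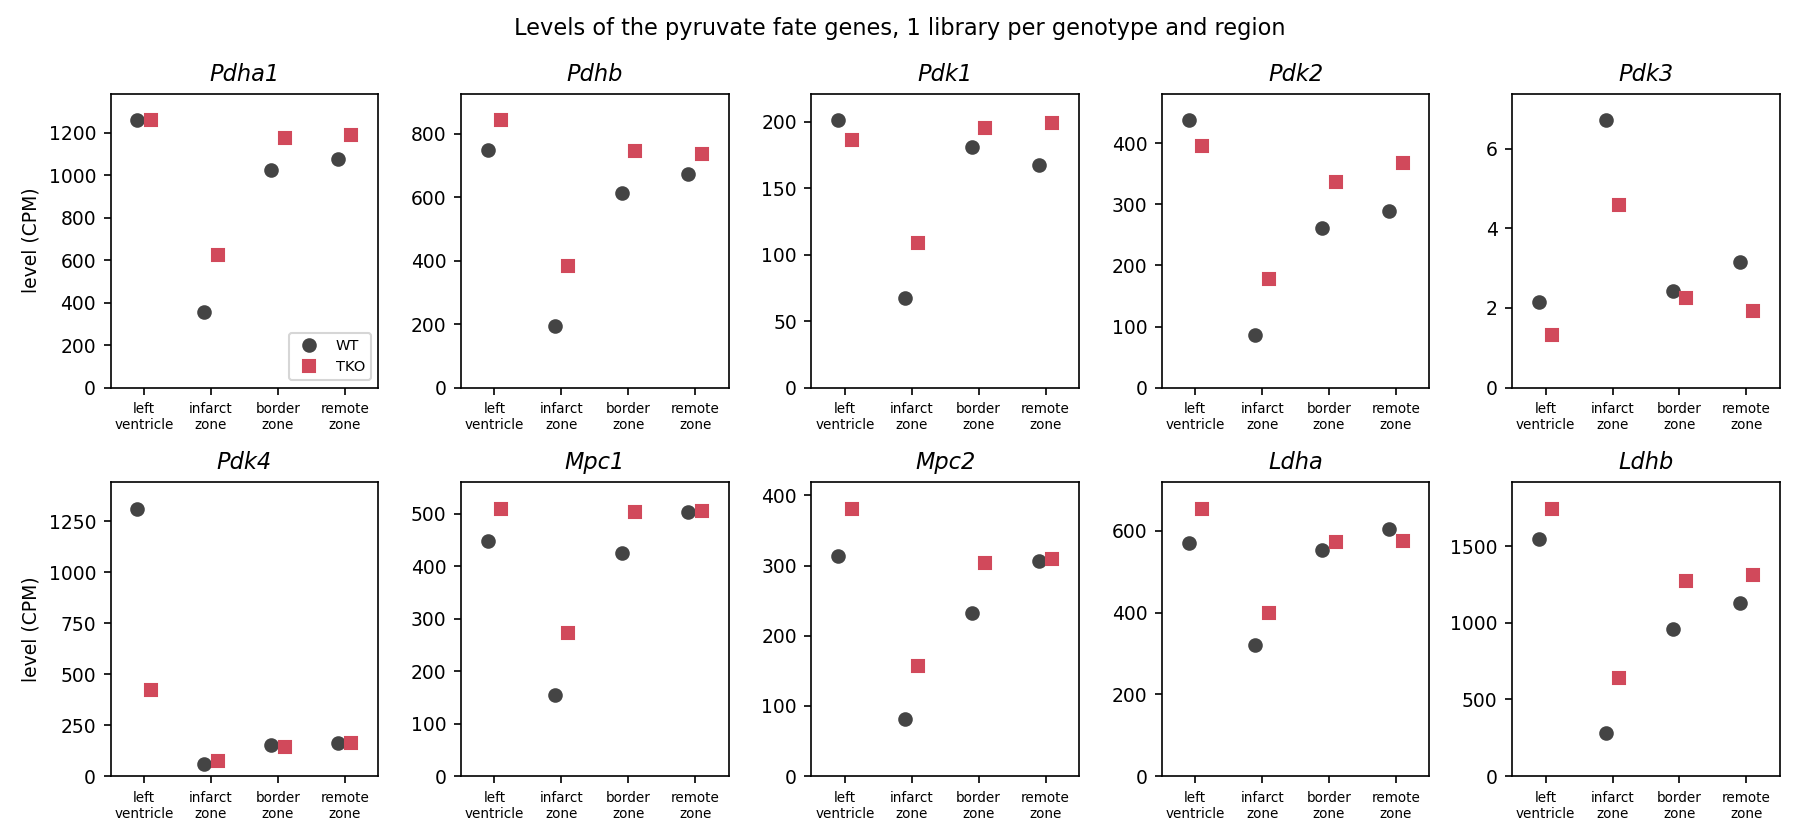
Level of each of the 10 genes in CPM (TMM scaling, linear axis from 0) by region, with 1 point per library, WT as grey circles and TKO as red squares. In 9 genes the infarct zone points are the lowest of their genotype, *Pdk3* peaks there at 6.71 CPM in WT, and the WT left ventricle stands alone for *Pdk4* at 1312 CPM.

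The comparison of genotypes region by region counted genes at least 1.5-fold different after a prior count. In the infarct zone 7 of the 10 genes were higher in TKO and 0 lower, where 10.1% of all genes were higher and 6.21% lower, and the median ratio of the 10 was 1.76 against 1.005 for all genes. The left ventricle had 2 of the 10 lower (*Pdk3* and *Pdk4*) and 0 higher, against 8.74% and 5.69% of all genes. In the border zone 0 of the 10 passed in either direction, against 3.61% higher and 8.32% lower of all genes, and in the remote zone 0 were higher and 1, *Pdk3*, lower, against 3.13% and 6.32%. The medians were 1.06, 1.17, and 1.05 in the left ventricle, border, and remote zones.

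The 7 genes higher in the TKO infarct zone moved with the cardiomyocyte markers of the same libraries, whose sum was 9888 CPM in WT and 20500 CPM in TKO. Using the summed cardiomyocyte markers as the library size lowers the ratio of every gene there by the same factor, and the median of all genes became 0.487. The TKO over WT ratios then were 0.846 for *Pdha1*, 0.963 for *Pdhb*, 0.779 for *Pdk1*, 0.989 for *Pdk2*, 0.852 for *Mpc1*, 0.924 for *Mpc2*, and 1.08 for *Ldhb*, each above that median. Those of *Pdk3*, *Pdk4*, and *Ldha* were 0.330, 0.580, and 0.598, of which *Pdk3* alone lay below it. With total counts, where the median of all genes was 0.820, *Pdk4* was at 0.980 and *Ldha* at 1.01 in the infarct zone, and the 7 higher genes kept ratios above 1, from 1.32 for *Pdk1* to 1.83 for *Ldhb*.

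**Figure D3:**
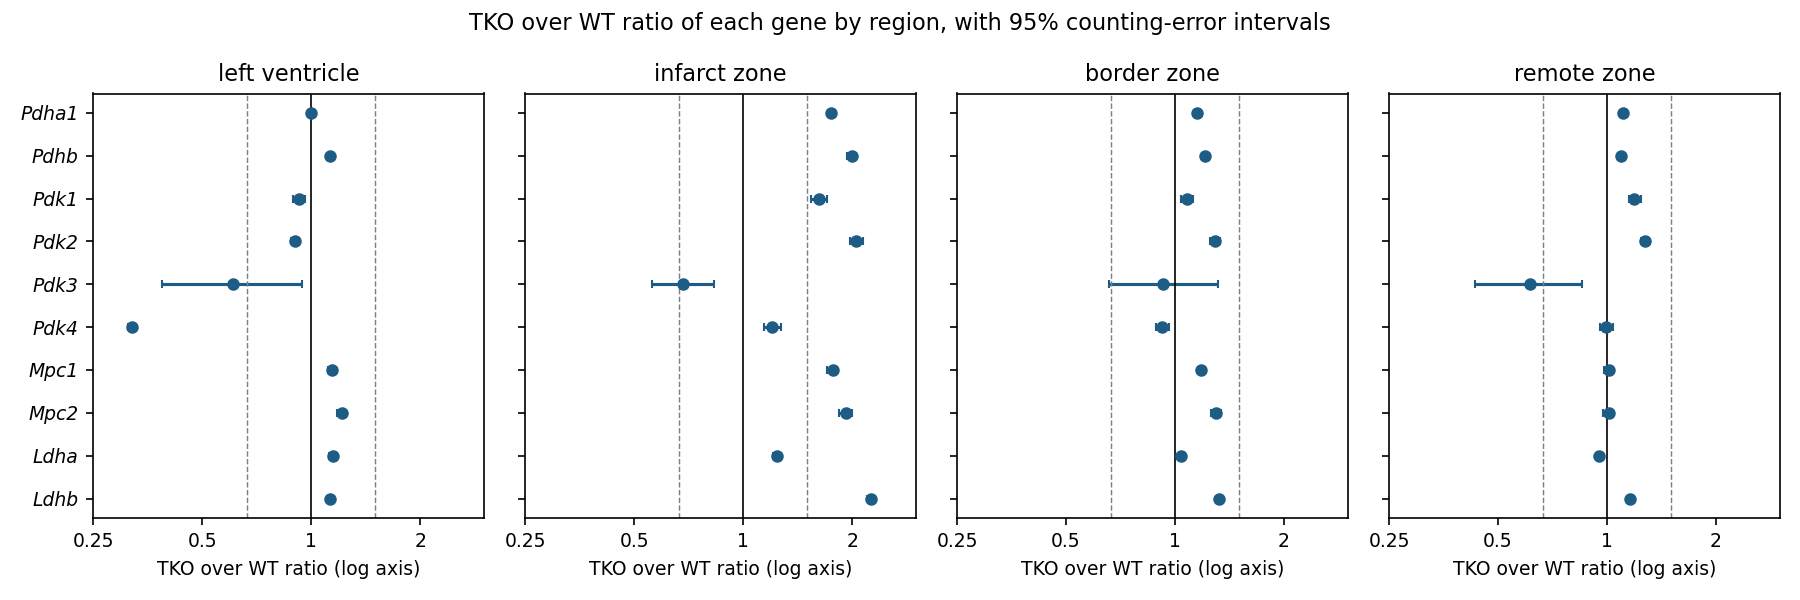
TKO over WT ratio (log axis) of each gene in the 4 regions with TMM scaling, with bars for the 95% counting-error interval, a solid line at 1, and dashed lines at a 1.5-fold difference. The infarct zone panel has 7 genes to the right of the upper dashed line, and *Pdk4* lies at 0.320 in the left ventricle panel.

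Across the 4 regions with region as a block, edgeR's test of genotype called 0 of the 10 genes and 18 of all genes (0.138%), and 3 of the 10 had an unadjusted p under 0.05, as did 16.2% of all genes. These were *Pdk3*, with a log2 fold change of -0.52 ± 0.18 (SE; edgeR adjusted p = 0.265), *Mpc2* at 0.40 ± 0.16 (edgeR adjusted p = 0.294), and *Ldhb* at 0.49 ± 0.19 (edgeR adjusted p = 0.296). DESeq2 also called 0, against 2.63% of all genes. With cardiomyocyte markers as library size edgeR called *Pdk4* alone, as lower at -0.75, where the median of all genes moved to -0.38. Of all genes 4.31% passed on that scale, 25 as higher and 535 as lower. For *Pdk4* the log2 fold change was -0.36 over all regions and 0.05 without the left ventricle pair. The test for an infarct zone difference apart from that of the remaining regions called none of the 10 genes in edgeR, where 1 gene in all (0.00769%) passed. An unadjusted p under 0.05 was found for 7 of the 10, against 7.83% of all genes, and DESeq2 called 2.22% of all genes and 6 of the 10 (*Pdha1*, *Pdhb*, *Pdk2*, *Mpc1*, *Mpc2*, and *Ldhb*). The largest departure among these was that of *Ldhb*, 0.90 ± 0.17 (log2, SE). The median departure in edgeR was 0.70 for the 10 members and 0.82 for the 10 cardiomyocyte markers (log2).

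Levels in the infarct zone were set against those in the left ventricle to ask how MI tissue differed from the normal reference. In WT 9 of the 10 genes were at least 1.5-fold lower and *Pdk3* was higher, against 25.8% lower and 28.5% higher among all genes, and in TKO the same 9 were lower and *Pdk3* higher, against 20.2% and 26.2%. The median ratio of the 10 genes was 0.272 in WT and 0.475 in TKO. In the edgeR fit over both genotypes, which stand in for replicates of a region, all 10 passed. Of these, 9 were lower and 1 higher, where 28.6% of all genes passed as lower and 28.2% as higher. The log2 fold change ranged from -3.59 for *Pdk4* to -0.77 ± 0.16 for *Ldha* (edgeR adjusted p = 0.00687) among the lower genes, with *Ldhb* at -1.92 ± 0.28 (edgeR adjusted p = 0.00219), and was 1.71 ± 0.26 for *Pdk3* (edgeR adjusted p = 0.00246). With the left ventricle left out, the infarct zone against the border and remote zones gave the same split, 9 lower and 1 higher, against 30.2% and 31.2% of all genes. *Pdk4* was at -1.21 ± 0.11 there (log2, SE; edgeR adjusted p = 8.95e-04).

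The scaling set how these falls read. With total counts *Ldha* was at -0.09 on the log2 scale for infarct zone against left ventricle and no longer passed in edgeR, whereas the other 9 genes still did, 8 as lower and *Pdk3* as higher. Of all genes 60.5% then passed as higher and 8.34% as lower. The loss of the call held also for *Ldha* against the border and remote zones, at -0.07. With the cardiomyocyte markers as library size all genes move up alike, the median gene stood at 1.68 (log2), and 84.6% of all genes passed as higher and 0.223% as lower. Of the 10 genes 3 passed in edgeR on that scale, *Pdk4* as lower and *Pdk3* and *Ldha* as higher. The other 7 did not pass, with *Pdha1*, *Pdhb*, *Pdk1*, *Mpc1*, and *Mpc2* at 0.02 to 0.47 and *Pdk2* and *Ldhb* below 0. On that scale the infarct over left ventricle ratio of *Ldha* was 2.46 in WT and 1.34 in TKO, and that of *Pdk4* 0.202 and 0.382, where the median gene was at 4.38 and 2.21.

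**Figure D4:**
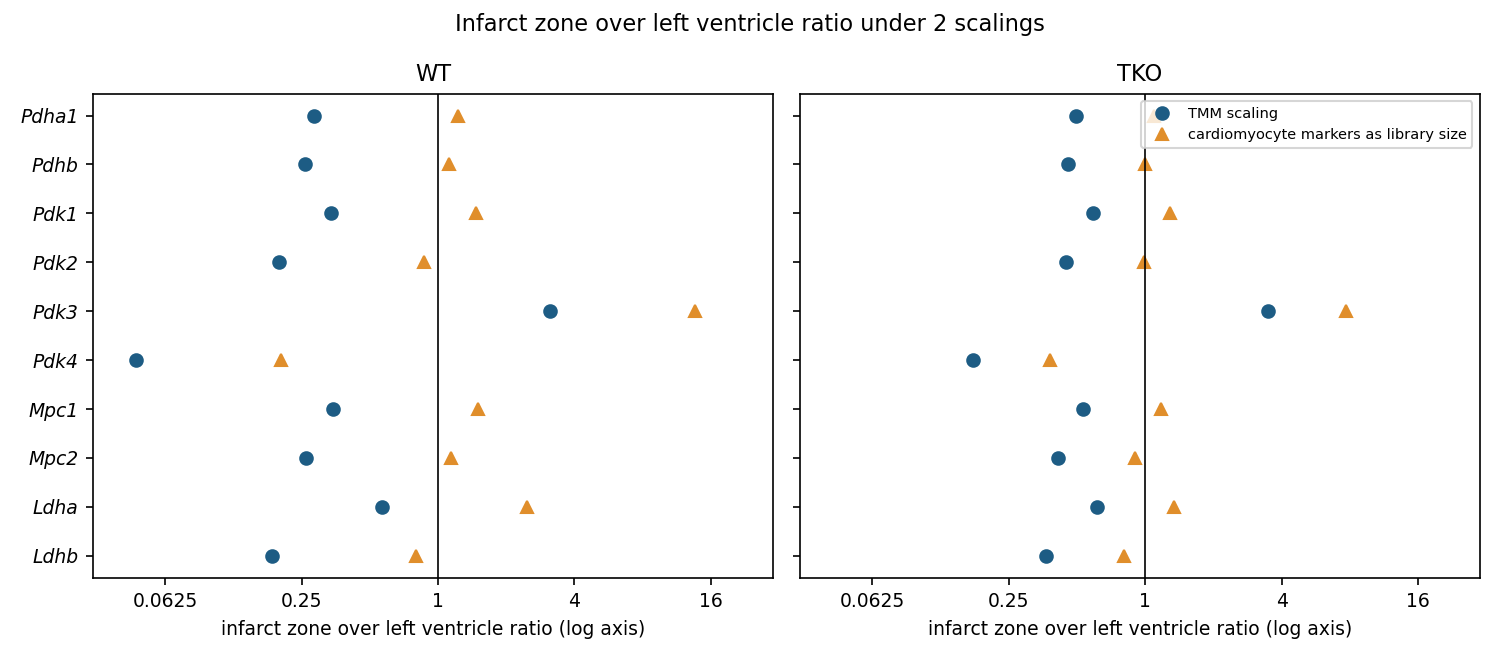
Infarct zone over left ventricle ratio (log axis) of each gene in WT and TKO, as blue circles with TMM scaling and as orange triangles with the summed cardiomyocyte markers as library size; the vertical line marks 1. With the markers as library size, the median of all genes is 4.38 in WT and 2.21 in TKO, and *Pdk4* lies at 0.202 and 0.382. *Pdha1*, *Pdhb*, *Pdk1*, *Pdk3*, *Mpc1*, and *Ldha* lie above 1 in both genotypes, and *Mpc2* in WT only.

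In the border zone against the left ventricle edgeR called 0 of the 10 genes and 0.715% of all genes, with 1 of the 10 at an unadjusted p under 0.05 (17.9% of all genes) and 1 called by DESeq2 (4.43% of all genes), *Pdk4* in each case. In the remote zone edgeR called 0 of the 10 and 0% of all genes, with the same counts of 1 and 1 for *Pdk4*, against 10.6% and 1.25% of all genes. *Ldhb* had a log2 fold change of -0.58 ± 0.27 in the border zone (edgeR adjusted p = 0.324) and -0.43 ± 0.27 in the remote zone (edgeR adjusted p = 0.602).

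Other genes of pyruvate handling were grouped by role. Of 6 genes for further PDH subunits, phosphatases, and their regulator, all 6 fell in the infarct zone against the left ventricle in edgeR, with a median log2 fold change of -1.42, as did the E1 genes. Of all genes 28.6% passed as lower and 28.2% as higher in that fit. *Dlat*, for the E2 subunit, was at -1.47 ± 0.24 (edgeR adjusted p = 0.00293), and *Dld*, for E3, at -1.45 ± 0.21 (edgeR adjusted p = 0.00213). *Pdhx*, for the E3 binding protein, was at -1.39 ± 0.19 (edgeR adjusted p = 0.00192). Of the phosphatase genes that oppose the kinases, *Pdp2* was at -1.79 ± 0.28 (edgeR adjusted p = 0.00276) and *Pdp1* at -0.62 ± 0.11 (edgeR adjusted p = 0.0043). *Pdp2* was also at its highest in the WT left ventricle, with 45.1 CPM against 34.4 in the TKO left ventricle and 8.46 to 26.6 in the zones. In the TKO infarct zone 5 of the 6 were at least 1.5-fold higher than in WT, *Pdp1* being the exception at 1.13 (1.03 to 1.23). Of all genes 10.1% were that much higher there, and so were all 10 cardiomyocyte markers.

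Of 5 genes for monocarboxylate transporters and their partners, 3 fell and 2 rose in the infarct zone in edgeR, against 28.6% and 28.2% of all genes. *Slc16a1* (MCT1) and *Bsg* (basigin, its partner) fell, at -0.96 ± 0.19 (edgeR adjusted p = 0.006) and -1.40 ± 0.20 (edgeR adjusted p = 0.00198). *Slc16a3* (MCT4, a lactate exporter) rose by 2.57 ± 0.29 (edgeR adjusted p = 0.00111). Its levels were 2.34, 17.7, 8.02, and 4.14 CPM in the WT left ventricle, infarct, border, and remote zones and 2.16, 10.2, 3.40, and 3.06 CPM in TKO. As with *Pdk3* and the summed leukocyte and fibroblast markers, the WT infarct zone was highest and the TKO infarct zone next. For *Slc16a3*, TKO over WT was 0.577 (0.507 to 0.654) in the infarct and 0.425 (0.334 to 0.537) in the border zone. Of 8 further enzymes of pyruvate and lactate, 6 fell, against 28.6% of all genes, and *Pcx* and *Me2* did not pass. Among the 6 was *Pkm* (pyruvate kinase of muscle) at -1.02 ± 0.17 (edgeR adjusted p = 0.00331). *Pcx* (pyruvate carboxylase) had 45 to 200 counts per library, each a multiple of 5, and was not compared further. Between genotypes across regions edgeR called 0 genes of these 3 lists, with 3, 2, and 1 genes at an unadjusted p under 0.05, and DESeq2 called 0, 1, and 0. Of all genes, edgeR called 0.138%, 16.2% had an unadjusted p under 0.05, and DESeq2 called 2.63%.

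The genes most like *Pdk4*, *Ldha*, and *Ldhb* were found by Pearson's r of log2(CPM + 1) over the 8 libraries. This is a description in which all genes share the same scaling. The 2 infarct zone libraries weigh heavily in it, and for *Pdk4* so does the WT left ventricle. For *Pdk4* they were *Ubb* (ubiquitin, r = 0.993), *Hspb1* (a small heat shock protein, 0.980), and *Lipe* (hormone-sensitive lipase, 0.974). Their range was narrower, from 683 CPM in the WT infarct zone to 925 CPM in the WT left ventricle for *Ubb* and from 14.6 to 46.1 CPM for *Lipe*. For *Ldhb* they included *Tufm* (a mitochondrial translation factor) and *Coq8a* (coenzyme Q synthesis), each with r = 0.999. For *Ldha* they were *Rsl1d1* (0.999), *Ndufa2* (0.998), and *Brd7* (0.998).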

How the data were processed

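The authors trimmed reads with Trim Galore 0.6.5, quantified them with kallisto 0.46 against the mm10 transcriptome, and used tximport for sums per gene. Estimated counts per gene and library were deposited as whole numbers, without normalization, and 16964 genes had a count. The members and lists were chosen with earlier results of these data known. Counts were scaled with TMM and tested with edgeR 4.0.16 in R 4.3.3 (quasi-likelihood, region plus genotype, adjusted p threshold 0.05), after a filter of a mean of 1 CPM. A prior count of 2 was used for fold calls of 1.5. No p-value measures a spread between mice. Those for genotype rest on the spread between regions. Those for a zone against the left ventricle rest on the 2 genotypes as blocks, with 1 library of each genotype and region. The SE given with an edgeR log2 fold change is that change, without its sign, divided by the square root of its F statistic. Exon lengths came from GENCODE M21. Alternatives were DESeq2 1.42.0, total counts, no filter, at least 10 counts in every library, a 2-fold limit, mitochondrial DNA-encoded genes left out, each region pair left out, and cardiomyocyte markers as library size. The fits were tested on simulated data. Named genes were the 10 members, 10 companions, *Tigar*, and the 3 genes most like each of *Pdk4*, *Ldha*, and *Ldhb*, of which 1 is not reported here. Others came from the lists. The test of the left ventricle's departure, the infarct zone against the border and remote zones, and cardiomyocyte markers as library size in the fits were added after the data were seen.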

Additional observations from a re-analysis of the deposited data

Results flagged for a closer look

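With TMM scaling, the TKO over WT ratio of 4 genes lay on opposite sides of 1 in a pair of regions, beyond counting error. The share of all genes with such a pair is not given here. *Pdk1* was at 0.925 in the left ventricle and 1.62 in the infarct zone, and *Pdk2* at 0.903 and 2.05. *Pdk4* was at 0.320 in the left ventricle and 1.20 in the infarct zone. *Ldha* was at 0.952 in the remote zone and 1.24 in the infarct zone. With cardiomyocyte markers as library size both ratios of each pair lay below 1, but that scale moves all genes of a region by the same factor. The median ratio of all genes on it was 0.964 in the left ventricle, 0.487 in the infarct zone, and 0.891 in the remote zone. In the same order as above, the ratios were 0.886 and 0.779 for *Pdk1* and 0.864 and 0.989 for *Pdk2*. They were 0.306 and 0.580 for *Pdk4* and 0.854 and 0.598 for *Ldha*. With total counts both ratios of *Pdk4* also lay below 1, at 0.319 and 0.980, where the median of all genes was 1.004 and 0.820. The difference within each of these pairs of regions was not tested, since each region has 1 library per genotype. In edgeR's fit over all regions, the infarct zone's difference apart from that of the remaining 3 regions was 0.61 ± 0.20 for *Pdk1* (log2, SE; edgeR adjusted p = 0.509), 0.85 ± 0.25 for *Pdk2* (edgeR adjusted p = 0.465), 0.85 ± 0.67 for *Pdk4* (edgeR adjusted p = 0.935), and 0.25 ± 0.17 for *Ldha* (edgeR adjusted p = 0.922).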

How the results depend on the processing

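A depth of at least 27429240 counts per library makes counting error small for all members except *Pdk3*, and the limit is the single library per condition. Under DESeq2 the number of genes called was 342 for genotype, 576 for the border zone, 162 for the remote zone, 288 for the infarct zone departure, and 280 for the left ventricle departure, with 0, 1, 1, 6, and 1 members. With total counts it was 56 for genotype, 200 for the border zone (1 member), 18 for the remote zone, and 275 for the left ventricle departure (1 member). Without a filter the remote zone had 3 genes, and with at least 10 counts in every library it had 3 and the infarct zone departure 0. Leaving out 1 region pair gave 3 to 83 genes for genotype (3 without the remote, 5 without the border, 6 without the infarct zone, and 83 without the left ventricle pair), with 0 members each time. With cardiomyocyte markers as library size the fits called 560 genes for genotype, 25 as higher and 535 as lower (1 member). In the infarct zone they called 10999 genes as higher (2 members) and 29 as lower (1 member).

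At a 2-fold limit the members called between genotypes numbered 1 in the left ventricle, 2 in the infarct zone, and 0 in the remote zone. The border zone had 0 already at 1.5-fold. The share of all genes at the 2-fold limit is not given here, so these counts are not set against a background. With total counts the members' median TKO over WT ratio was 1.43 in the infarct and 1.09 in the border zone, and with cardiomyocyte markers as library size 1.02 in the left ventricle, 0.849 in the infarct, 0.977 in the border, and 0.941 in the remote zone. The median infarct over left ventricle ratio became 0.483 in WT and 0.690 in TKO with total counts, and 1.19 and 1.04 with cardiomyocyte markers. *Ldha* turned to 1.004 in WT with total counts. Cardiomyocyte markers as library size move all genes alike, to a median of 0.487 for TKO over WT in the infarct zone and of 4.38 in WT and 2.21 in TKO for infarct over left ventricle. Members at least 1.5-fold different with TMM that then lay on the other side of 1 were, for TKO over WT in the infarct zone, *Pdha1* 0.846, *Pdhb* 0.963, *Pdk1* 0.779, *Pdk2* 0.989, *Mpc1* 0.852, and *Mpc2* 0.924. *Pdk4* and *Ldha*, less than 1.5-fold higher with TMM, were at 0.580 and 0.598. For infarct over left ventricle in WT they were *Pdha1* 1.23, *Pdhb* 1.12, *Pdk1* 1.47, *Mpc1* 1.496, *Mpc2* 1.14, and *Ldha* 2.46, and in TKO *Pdha1* 1.09, *Pdhb* 1.003, *Pdk1* 1.29, *Mpc1* 1.17, and *Ldha* 1.34. In the fit (log2) they were *Pdha1* 0.21, *Pdhb* 0.09, *Pdk1* 0.47, *Mpc1* 0.40, *Mpc2* 0.02, and *Ldha* 0.87. The *Ldha* share per kilobase was 20.2% and 20.5% in the WT and TKO left ventricle, 43.8% and 30.1% in the infarct, 28.3% and 23.7% in the border, and 26.95% and 23.2% in the remote zone. The cause of the differences between tools was not tested. Genotypes were paired by region only, as the block of the fits and in the test of the LDH balance, since each group has 1 sample.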
